A study of Mus musculus with 4 samples.

Results

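The 34 genes described here mark endothelial cells, the cells that line blood vessels, or encode transcription factors of these cells. They were taken by symbol from a given list, and all 34 were found once among the 55421 gene identifiers. All 34 also passed the filter of 1 CPM (counts scaled to the size of the library) or more in 2 or more libraries, which kept 14492 genes. RNA was sequenced from whole uterus lysates of 2 WT mice (C57BL/6J) and 2 Qa-2- mice (B6.K1, strain B6.Cg-H2b3/FlaCmwJ), all pregnant and at E18.5, and each mouse gave 1 library. The B6.K1 strain is congenic to C57BL/6 at H2 and lacks the genes for Qa-2, a nonclassical MHC class I molecule, and both groups were mated within their own strain as young adults, so that the Qa-2- mothers carried Qa-2- fetuses. The labels name no treatment, and the uteri were snap-frozen before RNA isolation. Because the strain carries a whole replaced segment of the H2 region, the missing Qa-2 genes and other differences in that segment cannot be told apart. The WT strain came from Charles River and B6.K1 from The Jackson Laboratory, so differences between suppliers cannot be told apart from the genotype either.

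Endothelial cells hold together through junction proteins such as VE-cadherin and claudin-5, and their surface and matrix proteins control permeability, lipid uptake and leukocyte passage. Their identity depends on transcription factors of the ETS, SOXF, KLF and TAL1 families, which bind regulatory DNA of many endothelial genes. During pregnancy the blood vessels of the uterus grow and widen to supply the placenta.

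The Qa-2 genes checked the labels. H2-Q6 had 4204 and 1192 counts in WT replicates 1 and 2 and 3 and 3 counts in Qa-2- replicates 1 and 2, and H2-Q7 had 6318 and 1251 counts in WT and 4 and 2 counts in Qa-2- uteri. Total counts per library ranged from 33286390 to 41041299, so that a floor of 3 counts stood for 0.0731 to 0.0901 CPM, which covers counting error only. The smooth muscle genes Acta2, Myh11 and Actg2, the epithelial genes Epcam, Krt8 and Krt18 and the stromal genes Pdgfra, Dcn and Hoxa10 all passed the filter, as did the endothelial genes Cdh5, Pecam1 and Kdr. The libraries of one group were not alike in other tissue. The decidual prolactin gene Prl8a2 had 4387 counts in WT replicate 1 and 77, 139 and 464 counts in WT replicate 2 and Qa-2- replicates 1 and 2, and the placental gene Psg21 had 308 counts in WT replicate 2 and none in the other 3 libraries. For tissue collection and cell suspensions, the methods state that the fetuses and fetal placenta were dissected off and blood vessels were removed. The RNA methods do not say whether this was done for the uteri used here, and neither part states whether decidua was removed. The part of such tissue in the results was not tested, and the counts and fold changes of the 34 genes were also computed without each library.

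Promoter windows, from 250 bases before to 50 after the start of a transcript, were given by RefSeq (GRCm38.p6) for 16 of the 34 genes. The letters CAGGAAG, a form of the ETS binding motif read here on both strands, stood in a window of 7 of these 16 genes (43.8%) and in a window of 14.8% of all 27025 genes in the table. Apold1 and Egfl7 held the letters 2 times in a window, while Cldn5, which had the largest difference between the groups, held neither CAGGAAG nor CCGGAAG. Cd34, which was not higher in WT uteri, held CAGGAAG 1 time. The windows of these 4 genes are shown because they cover genes that were higher in WT uteri, with and without the letters, and a gene that was not. Capitals mark CAGGAAG or, where it lies on the other strand, CTTCCTG. Apold1 is shown at chr6:134981751-134982050, the first window of Egfl7 at chr2:26580833-26581132, Cd34 at chr1:194938571-194938870 and Cldn5 at chr16:18776597-18776896, all on the plus strand and written 5′ to 3′.
Apold1: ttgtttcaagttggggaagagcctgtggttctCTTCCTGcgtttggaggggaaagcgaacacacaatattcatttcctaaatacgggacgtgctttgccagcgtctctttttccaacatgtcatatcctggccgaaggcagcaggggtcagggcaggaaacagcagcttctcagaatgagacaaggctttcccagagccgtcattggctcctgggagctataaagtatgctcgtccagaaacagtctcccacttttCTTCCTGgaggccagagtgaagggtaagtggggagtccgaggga
Egfl7: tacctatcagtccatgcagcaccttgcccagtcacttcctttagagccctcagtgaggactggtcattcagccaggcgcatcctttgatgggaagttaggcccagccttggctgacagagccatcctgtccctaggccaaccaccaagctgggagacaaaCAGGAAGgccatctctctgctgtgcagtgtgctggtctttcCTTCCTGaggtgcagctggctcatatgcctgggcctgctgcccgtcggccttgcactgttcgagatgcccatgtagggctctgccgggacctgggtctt
Cd34: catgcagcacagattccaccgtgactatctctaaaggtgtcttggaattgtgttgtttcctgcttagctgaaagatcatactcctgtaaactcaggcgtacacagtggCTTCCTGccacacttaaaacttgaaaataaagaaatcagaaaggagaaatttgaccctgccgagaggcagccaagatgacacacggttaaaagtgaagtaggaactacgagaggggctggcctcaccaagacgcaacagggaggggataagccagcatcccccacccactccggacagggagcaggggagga
Cldn5: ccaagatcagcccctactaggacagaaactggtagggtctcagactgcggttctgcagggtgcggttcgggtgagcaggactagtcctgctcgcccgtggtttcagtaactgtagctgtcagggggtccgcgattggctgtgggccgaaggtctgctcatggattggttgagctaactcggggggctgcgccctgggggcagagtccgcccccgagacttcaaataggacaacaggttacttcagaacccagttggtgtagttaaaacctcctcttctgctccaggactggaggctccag

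In Apold1 the matches lay at offsets of -218 and 6 from the start of the transcript, and in Egfl7 at offsets of -90 and -49. The match of Cd34 lay at an offset of -142. The other genes with CAGGAAG were Emcn, Erg, Robo4 and Rasip1, and Lyl1 held the second ETS form, CCGGAAG, which is found in 9.93% of all genes. Either ETS form stood in 8 of 16 members and in 23.1% of all genes. The SOX letters AACAAT stood in 2 of 16 members (12.5%, against 12.2% of all genes), the GATA letters AGATAA in 3 (18.8%, against 12.7%), the E-box CAGCTG in 3 (18.8%, against 18.3%) and the KLF letters CCACCC in 7 (43.8%, against 9201 of the 27025 genes). These matches describe the letters only, and no match says only that the letters were not in these windows.

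Most of the endothelial genes were higher in WT than in Qa-2- uteri. Both WT values lay above both Qa-2- values for 29 of the 34 genes, compared with 25.4% of all genes tested, and both lay below for 2 genes, Sox7 and Klf4, compared with 24.5%. The groups overlapped for Cd34, Sox17 and Cd93. The median log2 fold change (WT over Qa-2-) of the 34 genes was 0.84, with a range from -0.84 to 1.66, while the median of all genes tested was 0.01. A log2 fold change of at least 0.5 was reached by 27 of the 34 genes and by 13.7% of all genes. The summed level of the 34 genes was 2968 and 3232 CPM in WT and 2118 and 2011 CPM in Qa-2- uteri. In whole tissue, fewer endothelial cells and less of their RNA per cell cannot be told apart.

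After adjustment over all genes tested, none of the 34 genes passed edgeR's quasi-likelihood test at a Benjamini-Hochberg adjusted p of 0.05 (0 of 14492 genes, 0.0%), and the lowest value among them was 0.246. Without adjustment, 25 of the 34 genes had p under 0.05 and were higher in WT uteri, compared with 8.09% of all genes, and 0 were lower, compared with 7.09%. DESeq2, run as an alternative on the same counts and filter, called 19 of the 34 genes higher in WT at an adjusted p under 0.05, compared with 2.79% of all genes. It called 0 of the 34 genes lower. Of all 14492 genes it called 700 in either direction, 404 of them higher in WT, so that few genes were called lower at all. With 2 mice against 2, an exact two-sided permutation test of 1 gene cannot give a p below 0.33. The p-values of edgeR and DESeq2 rest on the spread within groups of 2 mice, with the variance of each gene estimated partly from the other genes.

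**Figure D1:**
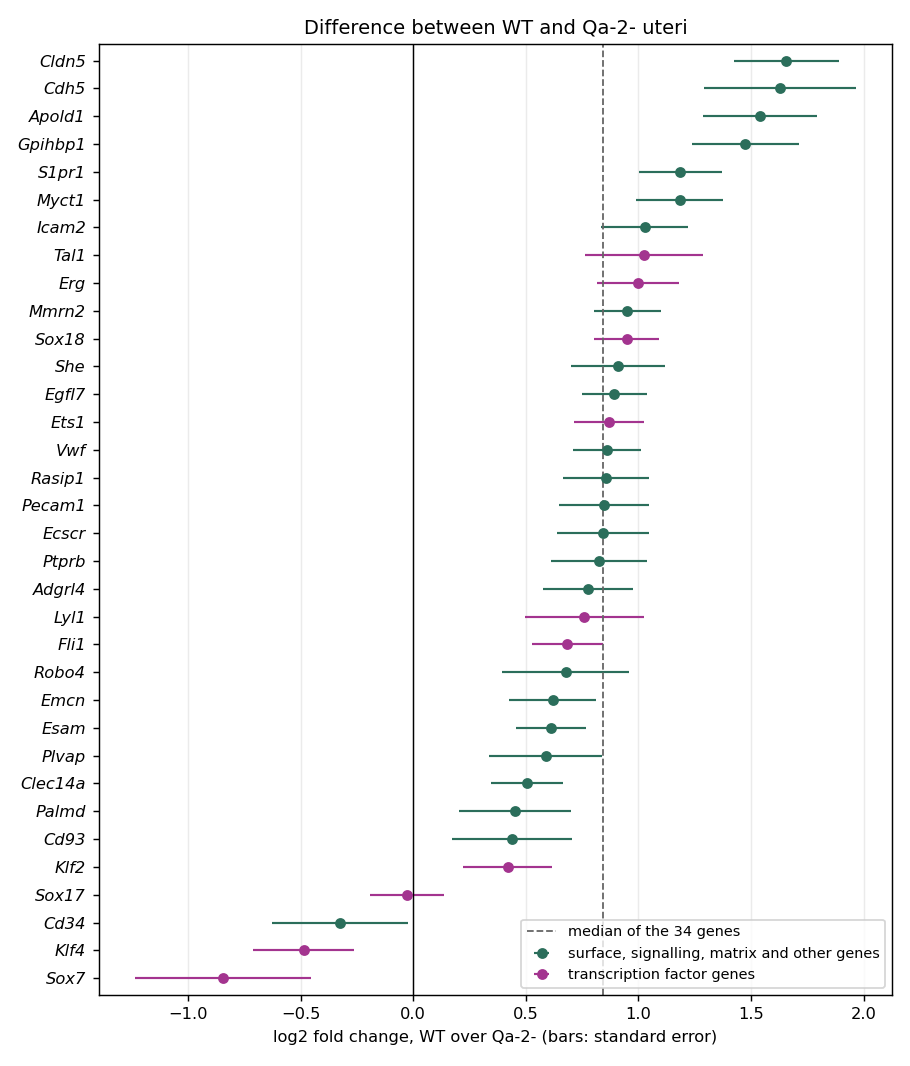
Log2 fold change (WT over Qa-2-, x axis) of the 34 genes, ordered by size, from edgeR's fit to 2 WT and 2 Qa-2- libraries. Points are estimates, bars are standard errors, and the dashed line is the median of 0.84. Cldn5, Cdh5, Apold1 and Gpihbp1 lie furthest to the right, and Sox17, Cd34, Klf4 and Sox7 lie below 0.

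Junction and adhesion genes held the largest differences, those of Cldn5 (chr16:18776847-18778262) and Cdh5 (chr8:104101625-104144511, both in the GRCm38.p6 coordinates of the files and on the plus strand). Cldn5, which encodes the tight junction protein claudin-5, had 131.6 and 88.8 CPM in WT replicates 1 and 2 and 36.3 and 33.7 CPM in Qa-2- replicates 1 and 2. The lower WT value was 2.45 times the higher Qa-2- value, and the log2 fold change was 1.66 ± 0.23 (SE, 2 mice per group) with an unadjusted p of 0.000748 in edgeR's fit across all genes. Cdh5, which encodes VE-cadherin, the adhesion protein of endothelial adherens junctions, had 444.3 and 239.0 CPM in WT and 115.9 and 105.2 CPM in Qa-2- uteri. Its groups did not overlap, but the WT replicates differed by 1.86 times, more than for any other member. Its log2 fold change was 1.63 ± 0.34 (SE), and it was 1.09 without WT replicate 1 and 2.01 without WT replicate 2.

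Pecam1, which encodes the adhesion molecule CD31, had 302.5 and 360.0 CPM in WT and 181.8 and 186.6 CPM in Qa-2- uteri, a log2 difference of 0.85 ± 0.20. Icam2, a ligand of leukocyte integrins, had 18.9 and 21.9 CPM in WT and 10.6 and 9.43 CPM in Qa-2- uteri, and the WT mean was 2.04 times the Qa-2- mean. Both genes were thus lower in both Qa-2- libraries by a margin larger than the spread within either group. Esam, an adhesion molecule of endothelial tight junctions, had 65.4 and 72.9 CPM in WT and 42.6 and 47.9 CPM in Qa-2- uteri. Emcn, the sialomucin endomucin of venous and capillary endothelium, had 35.2 and 34.9 CPM in WT and 19.6 and 26.0 CPM in Qa-2- uteri. The log2 fold changes of Esam and Emcn were 0.61 and 0.62, below the median of the 34 genes, and neither was among the genes that DESeq2 called.

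Cd34 (chr1:194938819-194961279) was the exception in this group. It encodes a sialomucin of small-vessel endothelium that is also carried by haematopoietic progenitors and by fibroblasts of many tissues. It had 299.2 and 481.7 CPM in WT and 525.2 and 452.3 CPM in Qa-2- uteri, so that the groups overlapped and WT replicate 1 stood alone at the low end. Its log2 fold change was -0.32 ± 0.30, with an unadjusted p of 0.33. Without WT replicate 1 it was -0.05, and without WT replicate 2 it was -0.71.

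**Figure D2:**
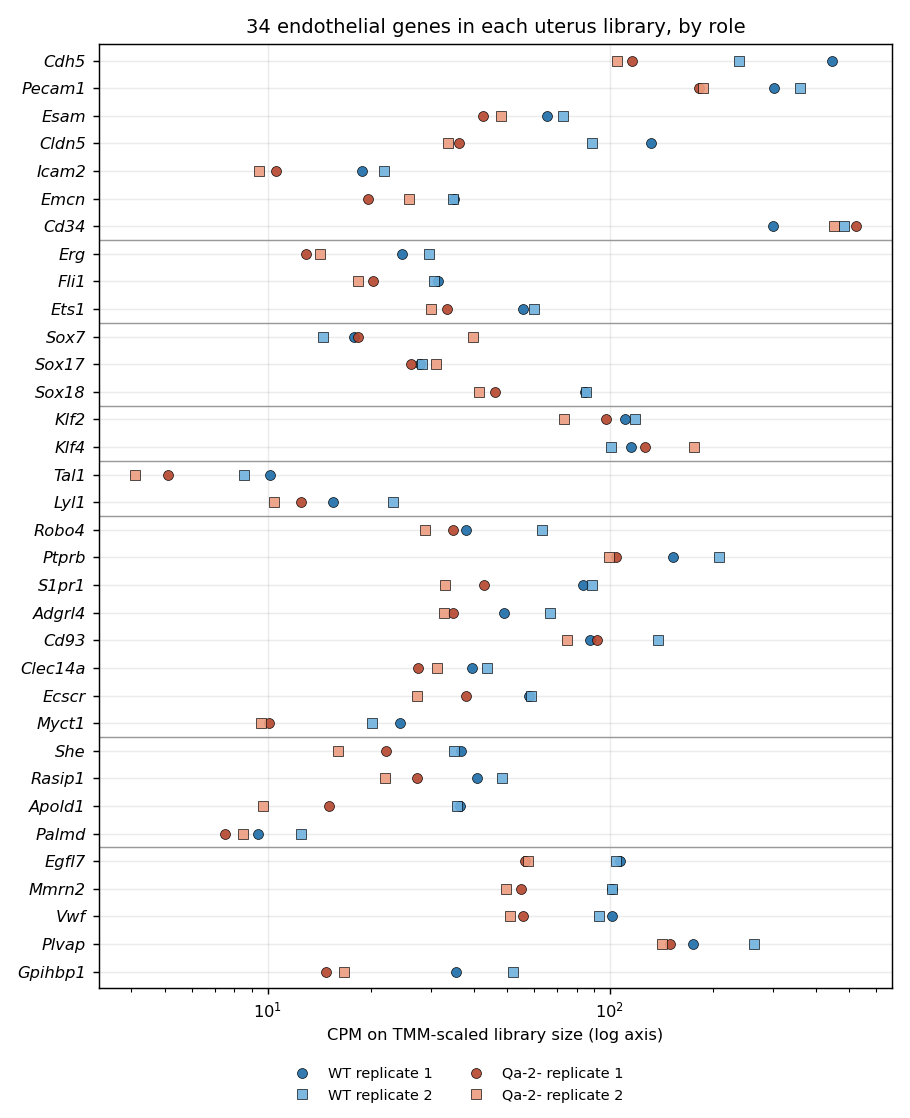
CPM on TMM-scaled library size (x axis, log scale) of each of the 34 genes in the 4 libraries, 1 point per mouse, with genes grouped by role between the grey lines. The blue WT points lie to the right of the red Qa-2- points for 29 genes, while they lie to the left for Sox7 and Klf4 and are mixed for Cd34, Sox17 and Cd93.

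Erg, Fli1 and Ets1 are ETS factors that maintain endothelial gene expression, and all 3 were higher in both WT uteri than in both Qa-2- uteri, compared with 25.4% of all genes. Erg had 24.7 and 29.6 CPM in WT and 13.0 and 14.2 CPM in Qa-2- uteri. Fli1, a close relative of Erg, had 31.5 and 30.7 CPM in WT and 20.3 and 18.4 CPM in Qa-2- uteri. Ets1, which is also present in lymphocytes, had 55.8 and 60.1 CPM in WT and 33.5 and 30.0 CPM in Qa-2- uteri. Their log2 fold changes were 0.998, 0.68 and 0.87, with unadjusted p-values in edgeR's fit across all genes between 0.00218 and 0.00673, and DESeq2 called Erg and Ets1.

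The SOXF factors, 3 related proteins that act in vessel growth and arterial and lymphatic specification, had log2 fold changes of either sign. Sox18 had 84.5 and 84.9 CPM in WT and 46.2 and 41.5 CPM in Qa-2- uteri. The WT replicates of Sox18 were almost equal, both were well above the Qa-2- replicates, and the log2 fold change was 0.95 ± 0.14. Sox17 had 27.9 and 28.2 CPM in WT and 26.3 and 31.0 CPM in Qa-2- uteri. The WT values of Sox17 lay between the Qa-2- values, and its log2 fold change of -0.03 ± 0.16 had an unadjusted p of 0.87 in the fit across all genes. Sox7 (chr14:63943673-63950732) had 17.9 and 14.5 CPM in WT and 18.3 and 39.9 CPM in Qa-2- uteri. The low mean of WT, at 0.557 times the mean of Qa-2-, rested on Qa-2- replicate 2. With that library left out, the log2 fold change of Sox7 went from -0.84 ± 0.39 to -0.18, and without Qa-2- replicate 1 it was -1.303.

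The pair of KLF factors, which respond to blood flow, was split as well. Klf2 had 110.7 and 118.1 CPM in WT and 97.4 and 73.6 CPM in Qa-2- uteri, with a log2 fold change of 0.42 ± 0.20. Klf4, which is also a factor of epithelial differentiation, had 115.2 and 101.0 CPM in WT and 126.3 and 176.5 CPM in Qa-2- uteri, with a log2 fold change of -0.49 ± 0.22. The groups did not overlap for either gene, but the unadjusted p-values in edgeR's fit across all genes were 0.0847 and 0.0813, and no setting called either gene after adjustment. Without Qa-2- replicate 2 the values went to 0.23 for Klf2 and -0.23 for Klf4, and without Qa-2- replicate 1 to 0.63 and -0.71.

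Tal1 and Lyl1, related basic helix-loop-helix factors of blood and endothelial cells, were higher in WT uteri. Tal1 had 10.2 and 8.54 CPM in WT and 5.10 and 4.09 CPM in Qa-2- uteri, with a log2 fold change of 1.02 ± 0.26. Lyl1 had 15.5 and 23.3 CPM in WT and 12.5 and 10.4 CPM in Qa-2- uteri, with a log2 fold change of 0.76 ± 0.26 that was 0.44 without WT replicate 2, where the unadjusted p in edgeR's fit was 0.19. Both factors also serve red cell and megakaryocyte precursors. All 5 erythroid genes that passed the filter (Hba-a1, Hba-a2, Hbb-bs, Hbb-bt and Alas2, of 11 listed) were higher in both WT uteri (25.4% of all genes), and their list summed to 365 and 723 CPM in WT and 116 and 76.1 CPM in Qa-2- uteri. The embryonic globin genes Hbb-y, Hba-x and Hbb-bh1 had at most 3 counts in each library. The part of blood cells in the values of Tal1 and Lyl1 was not tested. Over the 10 transcription factor genes, 7 were higher in both WT uteri (25.4% of all genes tested) and the median log2 fold change was 0.72, and over the other 24 genes 22 were higher in both WT uteri and the median was 0.85.

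Receptors and surface proteins that carry signals were all higher on average in WT uteri, and 7 of 8 had both WT values above both Qa-2- values, compared with 25.4% of all genes tested. S1pr1, the receptor for sphingosine-1-phosphate that stabilises the endothelial barrier, had 83.6 and 89.0 CPM in WT and 42.9 and 32.96 CPM in Qa-2- uteri. Myct1, a small membrane protein found in endothelium, had 24.4 and 20.2 CPM in WT and 10.1 and 9.55 CPM in Qa-2- uteri. These genes had log2 fold changes of 1.19 and 1.18, the largest of the group, and DESeq2 called both. Ptprb, which encodes VE-PTP, the phosphatase that restrains the Tie2 receptor, had 153.1 and 208.0 CPM in WT and 104.5 and 99.4 CPM in Qa-2- uteri. Ecscr, a surface protein of endothelial cells, had 57.9 and 58.7 CPM in WT and 37.9 and 27.3 CPM in Qa-2- uteri. The log2 fold changes of Ptprb and Ecscr, 0.82 and 0.84, lay at the middle of the 34 genes.

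Adgrl4, an adhesion G protein-coupled receptor of growing vessels, had 48.9 and 66.8 CPM in WT and 34.7 and 32.8 CPM in Qa-2- uteri. Clec14a, a lectin-like partner of the matrix protein Mmrn2, had 39.6 and 43.8 CPM in WT and 27.5 and 31.3 CPM in Qa-2- uteri. Both genes kept the groups apart, with log2 fold changes of 0.78 and 0.50. Robo4, a roundabout receptor of endothelial cells, had 38.1 and 63.4 CPM in WT and 34.7 and 28.8 CPM in Qa-2- uteri. Cd93, another lectin-like partner of Mmrn2 that myeloid cells carry as well, had 87.6 and 138.2 CPM in WT and 91.5 and 75.1 CPM in Qa-2- uteri. WT replicate 2 was the highest library for both, and WT replicate 1 lay close to Qa-2- replicate 1. Leaving out WT replicate 2 took the log2 fold change from 0.68 to 0.26 for Robo4 and from 0.44 to 0.07 for Cd93.

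Inside the cell, Apold1 stood out. This gene, which is switched on in endothelium by stimulation and low oxygen, had 36.5 and 35.7 CPM in WT and 15.1 and 9.69 CPM in Qa-2- uteri. The WT replicates were nearly equal while the Qa-2- replicates differed by 1.56 times, and the log2 fold change was 1.54 ± 0.25. She, an adaptor with an SH2 domain, had 36.6 and 35.2 CPM in WT and 22.2 and 16.1 CPM in Qa-2- uteri. Rasip1, an effector of Rap1 needed for vessel lumens, had 40.96 and 48.4 CPM in WT and 27.3 and 22.1 CPM in Qa-2- uteri. Their log2 fold changes were 0.91 and 0.86. Palmd, which encodes palmdelphin, a cytoplasmic protein that muscle contains as well, had 9.37 and 12.5 CPM in WT and 7.52 and 8.46 CPM in Qa-2- uteri. Its groups did not overlap, but the margin between them was 1.11 times and the unadjusted p in edgeR's fit was 0.13. Without WT replicate 2 its log2 fold change went from 0.45 to 0.23.

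All 5 genes of matrix, secreted and capillary proteins were higher in both WT uteri, compared with 25.4% of all genes. Egfl7, a secreted protein of the endothelial matrix whose gene also hosts miR-126, had 107.4 and 104.6 CPM in WT and 56.6 and 57.6 CPM in Qa-2- uteri. Mmrn2, multimerin 2 of the endothelial matrix, had 101.4 and 101.5 CPM in WT and 55.2 and 49.8 CPM in Qa-2- uteri. Vwf, the clotting protein von Willebrand factor that megakaryocytes also make, had 101.2 and 92.8 CPM in WT and 55.8 and 51.1 CPM in Qa-2- uteri. In these 3 genes the replicates differed by at most 1.11 times in either group and the log2 fold changes were 0.89, 0.95 and 0.86. Of the platelet genes that passed the filter, Pf4 was higher and Itga2b and Ppbp were lower in both WT uteri, and 5 of the 8 listed platelet genes, among them Gp9, did not pass the filter.

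Gpihbp1, which carries lipoprotein lipase to the capillary lumen, had 35.5 and 52.0 CPM in WT and 14.8 and 16.7 CPM in Qa-2- uteri. The lower WT value was 2.12 times the higher Qa-2- value, and the log2 fold change was 1.47 ± 0.24. Plvap, which forms the diaphragms of fenestrated capillaries, had 174.9 and 263.0 CPM in WT and 149.4 and 142.0 CPM in Qa-2- uteri. WT replicate 1 was only 1.17 times the higher Qa-2- library, and the log2 fold change of Plvap without WT replicate 2 went from 0.59 ± 0.25 to 0.26.

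On a scale of TPM, which is divided by gene length and so allows genes to be compared, the levels of the 34 genes spanned a wide range. Plvap was the most abundant, with 240.4 and 389.6 TPM in WT and 239.9 and 218.7 TPM in Qa-2- uteri, and it had the highest mean (272 TPM over the 4 libraries). Cd34 (mean 182 TPM), Klf2 (161 TPM), Cdh5 (155 TPM), Cldn5 (148 TPM), Klf4 (127 TPM), Pecam1 (122 TPM) and Sox18 (117 TPM) followed, and the lowest means were those of Tal1 (4.66 TPM) and Palmd (3.86 TPM). The order was not the same in each library. In WT replicate 1, Cdh5 (288.8 TPM) and Cldn5 (253.9 TPM) were above Plvap, while in Qa-2- uteri Cdh5 (87.9 and 76.5 TPM) and Cldn5 (81.8 and 72.7 TPM) were below Klf4 (132.1 and 177.1 TPM). Neighbours among the abundant genes named here overlapped in their ranges over the libraries. Cdh5 ranged from 76.5 to 289 TPM and Klf2 from 122 to 188 TPM. Among the SOXF genes, Sox18 (78.4 to 154 TPM) was above Sox7 (13.0 to 37.0 TPM) and Sox17 (16.0 to 19.8 TPM) in every library.

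To separate the genes that were higher together from those that were not, each gene was set against the mean log2 CPM of the other 33 genes in the same library. On this scale 26 of the 34 genes differed by less than 0.5 between the groups. Cldn5 (0.91), Apold1 (0.86), Cdh5 (0.84) and Gpihbp1 (0.73) exceeded the common difference, while Sox7 (-1.54), Klf4 (-1.25), Cd34 (-1.14) and Sox17 (-0.79) lay below it. Because most of the 33 genes were higher in WT, a gene with equal CPM in both groups lies below 0 on this scale. For Sox17 it was -1.05 and -1.15 in WT and -0.47 and -0.15 in Qa-2- uteri, and for Cd34 it was 2.48 and 3.07 in WT and 3.99 and 3.84 in Qa-2- uteri. The replicates of each group differed across the genes as well. In WT uteri, 22 of the 34 genes were higher in replicate 2 than in replicate 1, and in Qa-2- uteri 23 were higher in replicate 1 than in replicate 2.

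**Figure D3:**
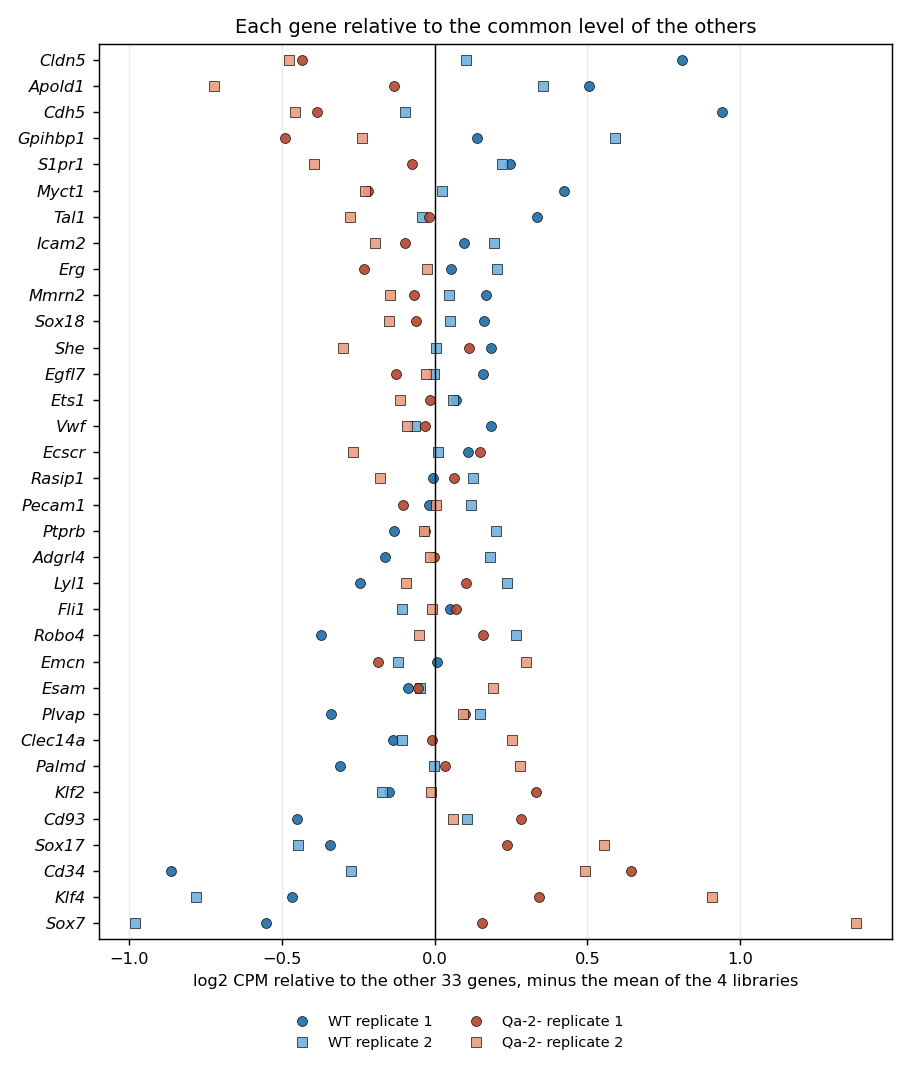
Log2 CPM of each gene relative to the mean of the other 33 genes in the same library, centred on the gene's mean over the 4 libraries (x axis), 1 point per mouse. Genes are ordered by the difference of WT minus Qa-2-, from 0.91 for Cldn5 at the top to -1.54 for Sox7 at the bottom.

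Genes of either direction are known from other cells too, as given above for Ets1, Vwf and Palmd, which were higher in WT uteri. Of the genes that were not higher, Klf4 is active in epithelium, and SOX17 is a factor of uterine glands as well as of arteries. No other cell type is given here for Sox7. The 13 listed epithelial genes summed to 4559 and 2590 CPM in WT and 4690 and 9265 CPM in Qa-2- uteri, and 9 of them were lower in both WT uteri (24.5% of all genes). The high sum of Qa-2- replicate 2 came from Ltf, the lactoferrin gene, which alone had 4933 CPM there and 414 CPM in Qa-2- replicate 1. Without Ltf, a choice made after seeing the data, the other 12 genes summed to 3211 and 1965 CPM in WT and 4276 and 4333 CPM in Qa-2- uteri. Single genes of the list differed in how the Qa-2- replicates compared. Elf3 (98.6 and 216.6 CPM in Qa-2- replicates 1 and 2), Muc1 (82.0 and 163.8 CPM), Epcam (200.2 and 364.7 CPM) and Cldn3 (98.1 and 145.1 CPM), as well as Cdh1, Klf5 and Foxa2, were higher in replicate 2, and Krt8, Krt18, Krt19, Krt7 and Cldn4 were higher in replicate 1. The 8 listed stromal and decidual genes summed to 10435 and 18193 CPM in WT and 18015 and 9474 CPM in Qa-2- uteri. Most of this sum was the collagen gene Col1a1, with 5472 and 14317 CPM in WT and 15144 and 7398 CPM in Qa-2- uteri. Without Col1a1, also a choice made after seeing the data, the other 7 genes summed to 4963 and 3877 CPM in WT and 2871 and 2076 CPM in Qa-2- uteri. Of the 8 genes, 4 (Dcn, Lum, Hand2 and Hoxa10) were higher (25.4% of all genes) and 1 (Pdgfra) was lower (24.5%) in both WT uteri, and 3 overlapped. The median log2 fold change of the 8 genes was 0.60. The part of these cells in the values of Sox7, Klf4, Sox17 and Cd34 was not tested.

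**Figure D4:**
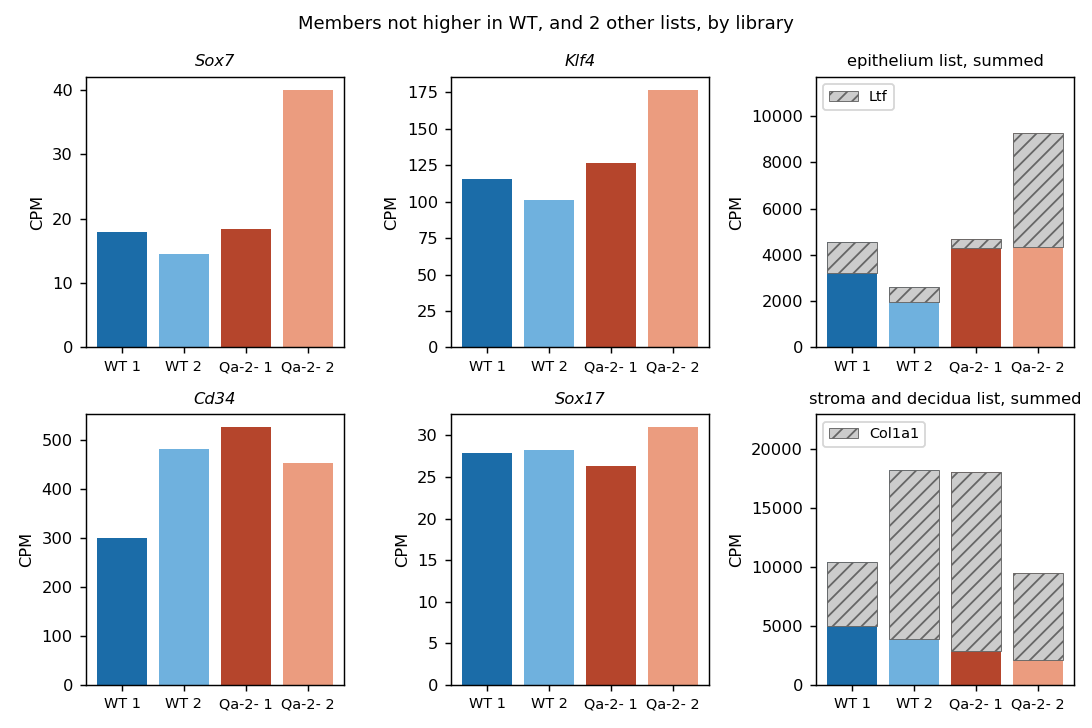
CPM in each of the 4 libraries (bars from 0, 1 bar per mouse) of Sox7, Klf4, Cd34 and Sox17, the 4 genes with a log2 fold change below 0, and of the summed epithelial and stromal gene lists, where the hatched part is Ltf or Col1a1. The bar of Qa-2- replicate 2 is the highest for Sox7 (39.9 CPM) and Klf4 (176.5 CPM), and in the epithelial sum its lead over Qa-2- replicate 1 is the hatched Ltf (4933 CPM).

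Blood endothelial genes outside the 34 gave a similar picture. Of 31 listed genes, among them Kdr, Tek and Tie1, 30 passed the filter, 25 were higher (25.4% of all genes) and 0 were lower (24.5%) in both WT uteri, and 16 had an unadjusted p under 0.05 (8.09% of all genes), all higher in WT. Their median log2 fold change was 0.69, between 1.44 for Gja5, a gap junction gene of arteries, and -0.26 for Ackr1, a chemokine-binding receptor of venules. The sum of this list was 1811 and 2030 CPM in WT and 1307 and 1067 CPM in Qa-2- uteri. Of 19 other transcription factor genes of endothelium, 18 passed the filter, 10 were higher and 1 was lower in both WT uteri (25.4% and 24.5% of all genes), and the median was 0.53. Foxc2, a factor of lymphatic valves and arteries, had the largest log2 fold change of these (1.41), and Ets2, an ETS factor found in many cell types, the smallest (-0.96). Etv2, the ETS factor of the first embryonic vessels, had 0 counts in each library.

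Lymphatic endothelium also contains some of the 34 genes, Sox18, Pecam1 and Cdh5 among them. All 6 lymphatic genes that passed the filter, of 7 listed, were higher in both WT uteri (25.4% of all genes), with a median log2 fold change of 1.80, between 2.21 for Reln and 1.304 for Pdpn. Prox1, Lyve1 and Flt4, which define these vessels, had at least 307 counts in every library. Their list summed to 1238 and 782 CPM in WT and 358 and 203 CPM in Qa-2- uteri. WT replicate 1 had the highest sum of this list. Of the 34 genes, 12 were higher in WT replicate 1 than in WT replicate 2, Cdh5 and Cldn5 among them, and 22 were higher in WT replicate 2. The part of lymphatic vessels in these values was not tested. Median log2 fold changes were 0.53 for 9 pericyte genes, 0.99 for 10 smooth muscle genes and 0.65 for 13 leukocyte genes. Of these, 5, 7 and 7 genes were higher in both WT uteri (25.4% of all genes), and 1, 0 and 3 had an unadjusted p under 0.05, all higher in WT (8.09%). The summed smooth muscle genes, at 27417 and 45558 CPM in WT and 24287 and 12992 CPM in Qa-2- uteri, did not overlap between the groups either. The leukocyte genes summed to 505 and 643 CPM in WT and 480 and 388 CPM in Qa-2- uteri. Gzmb had 26.96 CPM in WT replicate 1 and 1.83 CPM in Qa-2- replicate 1. Without Gzmb, a choice made after seeing the data, the sums were 478.1 and 641.6 CPM for the WT mice and 478.5 and 383.3 CPM for the Qa-2- mice. The sums of WT replicate 1 and Qa-2- replicate 1 were then almost equal. The part of pericytes, smooth muscle and leukocytes in the results was not tested.

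**Figure D5:**
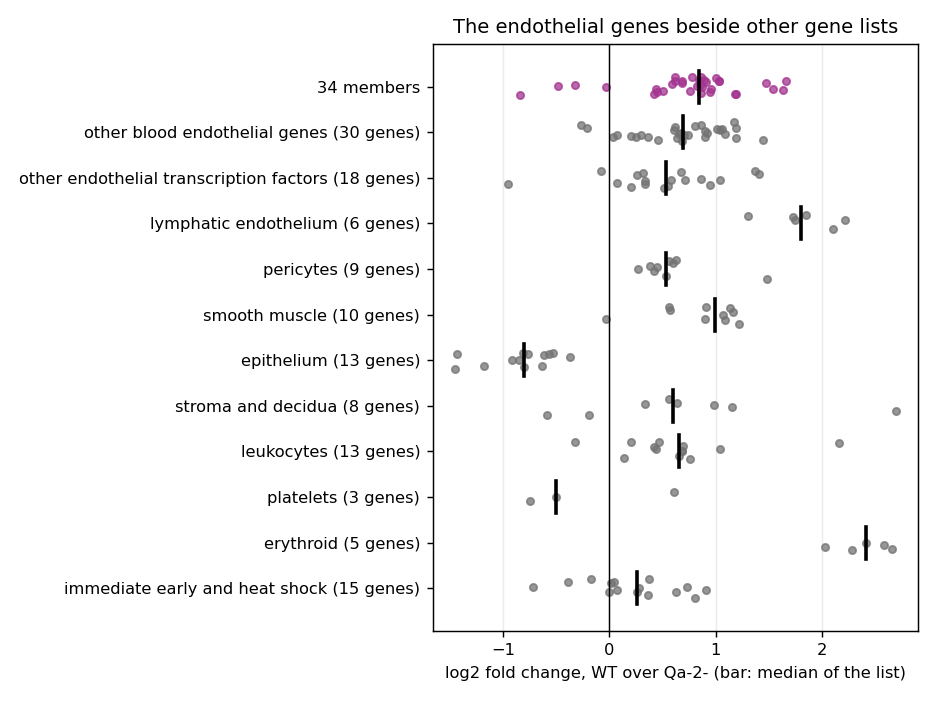
Log2 fold change (WT over Qa-2-, x axis) of every gene that passed the filter in the 34 endothelial genes and in 11 other gene lists, 1 point per gene, with a black bar at each list's median. The median is 0.84 for the 34 genes, 0.69 for the other blood endothelial genes and 1.80 for the lymphatic genes, and it is -0.80 for the epithelial genes.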

How the data were processed

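RNA was measured in uteri of 2 WT and 2 Qa-2- mice, grouped by the titles of the samples. The values deposited by the authors are raw counts per gene, counted with featureCounts 2.0.0 (mapping quality of at least 3, reverse strand) according to the file headers, and the submitters' processing notes name STAR 2.7.3a and GRCm38.p6. Symbols came from GENCODE and were found for 55154 of 55421 gene identifiers. Reads of Lyl1, Egfl7 and Plvap overlap genes on the opposite strand, which stranded counting keeps apart.

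A gene was kept if 2 or more samples had 1 CPM or more. The groups were compared with edgeR 4.0.16 (TMM factors, quasi-likelihood test, Benjamini-Hochberg adjustment over 14492 genes) in R 4.3.3. The standard error is the log2 fold change divided by the square root of F. Printed CPM are on TMM-scaled library sizes (factors 0.957 to 1.05), and TPM used the gene lengths of the files. The steps were tested on simulated data. The replicates of a group differed by more than sampling noise (chi-square per gene of 140.9 and 84.6).

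The 34 genes and all gene lists were chosen with earlier results of these data known, so no test was made over a list. All 34 genes were named. Of the other 2 endothelial lists and the lymphatic list the genes with the largest and smallest log2 fold changes were named. Others were named as markers of a cell type, as examples of a list or beside a value of the 34 genes. Etv2 was named because it had no counts, and H2-Q6 and H2-Q7 as a check of the genotype. Naming of Prl8a2, Psg21, Gzmb and of single epithelial, stromal and platelet genes was chosen after their values were seen.

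Replicate numbers come from the sample labels. Each number stands for a different animal in each group, and the sources describe no pairing, so no block was used. Alternatives were DESeq2 1.42.0, a robust fit, the fit with legacy set to false, a replicate block, upper-quartile factors, library totals without TMM, a filter of 10 counts in all samples or none, removal of haemoglobin and mitochondrial genes, and the omission of 1 library at a time. The lone library of a group is then assumed to vary like those of the other group.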

Additional observations from a re-analysis of the deposited data

How the results depend on the processing

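The number of the 34 genes with an adjusted p under 0.05, which was 0, became 19 with DESeq2 (700 of 14492 genes called) and 3 without a filter (61 genes called), and it ranged from 0 to 1 when a library was left out. The number with an unadjusted p under 0.05 and lower in WT, also 0, became 1 with DESeq2, 1 without a filter and 2 with the crossed pairing. The share of all genes lower at that level was 7.09% in the main fit and was not computed by direction for the other settings. The number higher in WT at an unadjusted p under 0.05 ranged from 23 to 29 over the settings with all 4 libraries. The 29 came with the crossed pairing, where 3625 of 14492 genes had an unadjusted p under 0.05 in either direction. This compares with 2199 genes without a block and 1331 with the replicate block. The number with both WT values above both Qa-2- values was 29 with all 4 libraries, but most of these settings reuse the same scaled values and could hardly change it. It is not given without a library, which leaves 1 value in a group. The median log2 fold change of the 34 genes was 0.75 with library totals alone and 0.72 to 0.88 when a library was left out. The replicate block gave a median of 0.85 and 23 genes higher in WT at an unadjusted p under 0.05, and it called none of the 34 genes (2 of all genes) at an adjusted p of 0.05. Samples of the same number deviated in opposite directions (r = -0.39 across genes, which are not independent replicates), and a block for the crossed pairing, chosen after seeing the data, called 0 genes. Of 476 values of single genes, 452 kept their direction and side of the threshold, 23 passed the threshold, and 1 changed sign, that of Sox17, which was -0.03 and ranged from -0.147 to 0.0899 when a library was left out, the latter without Qa-2- replicate 2. The cause was not tested. The lowest count of any of the 34 genes in a library was 143, for Tal1.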

Other observations

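The 15 listed immediate early and heat shock genes, Fos, Jun, Egr1 and Hspa1a among them, differed by a median of 0.26 on the log2 scale, with 1 gene higher and 2 lower in both WT uteri (25.4% and 24.5% of all genes), and their summed level was 999 and 1413 CPM in WT and 1189 and 1026 CPM in Qa-2- uteri. Apold1 and Klf4, which are also induced early after stimulation, had log2 fold changes of 1.54 and -0.49. Of 8 trophoblast genes only Tpbpa passed the filter, with 4 and 271 counts in WT and 115 and 5 counts in Qa-2- uteri. Of 5 yolk sac genes 3 passed the filter, their groups overlapped, and the list summed to 485 CPM in Qa-2- replicate 1 and to between 5.68 and 43.6 CPM in the other 3 libraries.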
